A study of Arabidopsis thaliana with 12 samples.

Results

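NRPA1 (AT3G57660) and NRPA2 (AT1G29940) are the Arabidopsis thaliana genes for the largest and second-largest subunits of RNA polymerase I. They were taken by symbol, each from the probe set that the array's annotation pairs with that gene alone. This gave 2 genes, each with 1 such probe set, of 13356 genes with a probe set of their own. NRPA1 lies on a different chromosome from NRPA2, and neither has a second one-gene probe set with which its values could be compared.

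RNA polymerase I works in the nucleolus, where it transcribes the long precursor of the large ribosomal RNAs. The largest and second-largest subunits face each other across the DNA cleft and together form the catalytic centre, so both are needed for activity. Smaller subunits are shared with other polymerases or clamp, anchor and proofread on the polymerase I core. Cytokinins are plant hormones that signal through a phosphorelay to response regulators, and in plant tissues they are known to promote cell proliferation and growth, which depend on ribosome supply.

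The series compared 2 Arabidopsis genotypes, each without and with hormone, on 12 single-colour arrays, 3 for each of 4 groups. Wild-type Col-0 plants (stock N1092) and plants labelled ARR22-ox, which overexpress the type-C response regulator ARR22, received either no treatment or t-zeatin, which is a natural cytokinin, at 20 µM for 3 h. All plants were 21 days old and vegetative, and RNA came from whole plants, although the series title speaks of seedlings. The untreated plants are not a mock treatment, and the promoter, the number of transgenic lines and the number of plants behind each array are not given in the sources used here. The titles of the Col-0 t-zeatin arrays alone carry a suffix, and its meaning is not given either. Nothing states that the arrays of a group came from separate plants, so p-values measure only the spread between these arrays, which may be technical.

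The genotype labels were borne out by RR22, the symbol given here to ARR22, whose signal lay between 2752 and 3661 on the ARR22-ox arrays and between 0.397 and 1.92 on the Col-0 arrays. One array differed from the rest. ARR22-ox untreated replicate 3 correlated with its own group at 0.927 on average across probe sets, while the other 11 arrays ranged from 0.959 to 0.991. Its GAPDH control probe sets gave 1.82 times as much signal at the 3' end as at the 5' end, and its actin control probe sets 3.47 times, where no other array exceeded 1.09 and 1.38. Some results below are also given without this array. Whole-plant tissue could be checked only in part: none of 7 leaf photosynthesis markers, 2 of 8 root markers and 1 of 10 markers of dividing cells had a tested probe set. The root marker PYK10 was bright in all 4 groups, with group means from 1388 to 2131. In whole-plant RNA, fewer cells of a type and less RNA per cell cannot be told apart.

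NRPA1 rose about 5-fold in wild type after t-zeatin. Its signals were 26.7, 27.4 and 23.6 on the untreated Col-0 arrays and 147, 116 and 132 on the t-zeatin arrays. Every treated array was thus far above every untreated one. The group means were 25.9 ± 2.03 and 132 ± 15.7 (SD, n = 3 arrays per group), a log2 change of 2.34 ± 0.15 (SE; adjusted p = 2.63e-07, limma). Signals are linear and comparable between arrays because the authors scaled every array to one level, and a log2 change of 1 is a doubling.

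NRPA2 rose about 3.5-fold in the same arrays. It measured 75.9, 71.8 and 65.8 without hormone and 243, 232 and 277 with it, again with no overlap between the groups. The means were 71.2 ± 5.09 and 251 ± 23.7 (SD, n = 3), a log2 change of 1.81 ± 0.10 (SE; adjusted p = 7.14e-08, limma).

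Both genes were near the top of the array in this comparison. Of 13648 tested probe sets ranked by their Col-0 response, NRPA1 was number 25 and NRPA2 number 116. Calls were common, with 23.7% of tested probe sets higher after t-zeatin at an adjusted p under 0.05, so that 2 of 2 members being called says less than the size of their changes. All 3 treated arrays lay above all 3 untreated ones for 33.2% of probe sets, and 21.1% were called lower. The median change of all tested probe sets was 0.013.

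**Figure D1:**
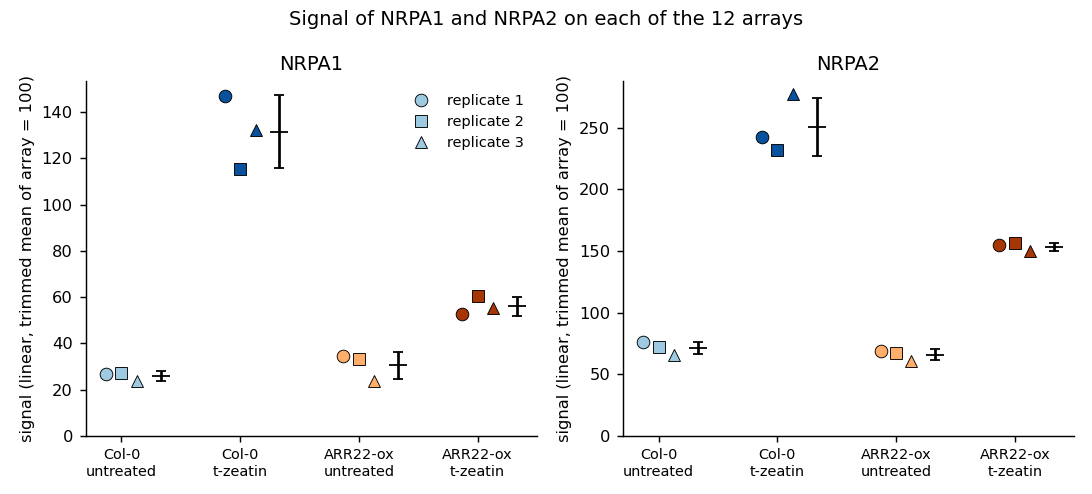
Signal of NRPA1 (left) and NRPA2 (right) on each array, on a linear axis from 0 on which the trimmed mean of every array is 100. Points are single arrays, with symbols for replicate numbers that pair nothing, and bars are the mean ± SD of 3 arrays. The Col-0 t-zeatin arrays are the highest in both panels (116 to 147 and 232 to 277) and the ARR22-ox t-zeatin arrays lie between them and the untreated arrays.

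In plants overexpressing ARR22 both genes also rose after t-zeatin, from untreated levels close to those of wild type. NRPA1 had signals of 34.4, 33.1 and 23.7 untreated and 52.5, 60.6 and 55.15 with t-zeatin. The groups did not overlap, and the lowest value came from replicate 3 of the untreated group, the array set apart above. The means were 30.4 ± 5.84 and 56.1 ± 4.12 (SD, n = 3), a 1.87-fold rise with a log2 change of 0.90 ± 0.15 (SE; adjusted p = 0.000402, limma). Without that array the change was 0.73 (adjusted p = 0.000135).

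NRPA2 rose 2.34-fold in ARR22-ox. Its signals were 69.2, 67.1 and 60.9 untreated and 155, 156 and 149.9 with t-zeatin, so that treated and untreated arrays were again fully apart. The log2 change was 1.23 ± 0.10 (SE, n = 3; adjusted p = 8.8e-07, limma), with means of 65.7 ± 4.32 and 154 ± 3.3. Without ARR22-ox untreated replicate 3, where NRPA2 was also lowest in its group, it was 1.17. In this comparison 25.2% of tested probe sets were called higher and 25.1% lower, and treated arrays lay above untreated ones without overlap for 28.0%. By size of rise NRPA2 was number 616 and NRPA1 number 1135, so the order of the subunits was the reverse of that in wild type.

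The rise of each gene was smaller in ARR22-ox than in Col-0, by a test of the difference itself. The response of NRPA1 was lower by a log2 difference of -1.44 ± 0.22 (SE, 3 arrays per group; 95% confidence interval -1.91 to -0.97; adjusted p = 0.000173, limma). NRPA2 differed by -0.59 ± 0.14 (95% confidence interval -0.89 to -0.29; adjusted p = 0.00393, limma). A lower response in ARR22-ox was called for 24.5% of tested probe sets and a higher one for 21.1%, and NRPA1 was number 455 and NRPA2 number 2925 from the bottom of the ranking. The loss was thus large for NRPA1 and, set against all probe sets, moderate for NRPA2.

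Without hormone the genotypes did not differ in either gene beyond the spread of the arrays. ARR22-ox minus Col-0 was 0.22 ± 0.15 for NRPA1 (95% confidence interval -0.12 to 0.55; adjusted p = 0.264, limma) and -0.12 ± 0.10 for NRPA2 (-0.33 to 0.10; adjusted p = 0.354), with overlapping arrays in both. Leaving out the array set apart, the third untreated one of ARR22-ox, turned the NRPA1 difference into a call (0.39, adjusted p = 0.0165), whereas NRPA2 was at -0.06 and not called. At an adjusted p under 0.05, 24.5% of tested probe sets were higher and 24.0% lower in ARR22-ox without hormone. Without the array set apart these calls went from 3342 and 3280 to 4252 and 4140 of 13648.

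After t-zeatin both genes were lower in ARR22-ox than in Col-0. NRPA1 had a mean of 56.1 against 132, a log2 difference of -1.23 ± 0.15 (SE, n = 3; adjusted p = 2.96e-05, limma), and NRPA2 a mean of 154 against 251, a difference of -0.70 ± 0.10 (adjusted p = 6.9e-05). No ARR22-ox array reached the lowest Col-0 array in either gene. In this comparison 28.0% of tested probe sets were called lower and 23.1% higher, and the ARR22-ox arrays lay below the Col-0 arrays without overlap for 37.8%. It shares its arrays with both hormone responses, and the untreated comparison does too, so these results are not separate evidence.

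The 4 groups therefore fell in nearly the same order for both genes. For NRPA1 the order from low to high was Col-0 untreated, ARR22-ox untreated, ARR22-ox t-zeatin and Col-0 t-zeatin, and for NRPA2 the untreated groups stood the other way round. In each gene only the untreated neighbours overlapped. The other neighbouring groups were apart on every array, and all but untreated Col-0 against ARR22-ox t-zeatin, which was not fitted for NRPA2, differed in the fit. The spread within groups was 2.15% to 9.44% of the mean for NRPA2. For NRPA1 it was 7.34% to 11.9% in 3 groups and 19.2% in ARR22-ox untreated. Even in its dimmest group NRPA1 had a mean of 25.9, above the lowest kept mean signal of 24.3, so its place among tested probe sets did not rest on the treated arrays.

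**Figure D2:**
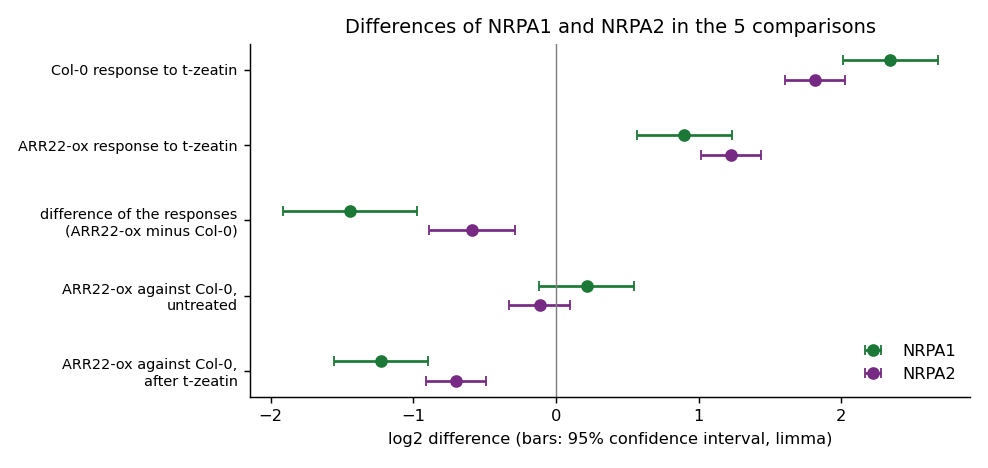
Log2 differences of NRPA1 and NRPA2 in the 5 comparisons, with 95% confidence intervals from the limma fit to 12 arrays. Both genes lie to the right of 0 in each t-zeatin response, to the left of 0 in the difference of responses and in the comparison after t-zeatin, and across 0 between the untreated groups.

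Whether the subunits changed by the same factor could not be settled with 3 arrays a group, although their measured changes differed. The log2 change of NRPA1 minus that of NRPA2, in which the scaling of an array cancels, was 0.53 in Col-0 and -0.33 in ARR22-ox. The fold rise of NRPA1 was thus 1.44 times that of NRPA2 in wild type, while in ARR22-ox the fold rise of NRPA2 was 1.25 times that of NRPA1. The per-array values did not overlap between treated and untreated arrays in either genotype. In ARR22-ox, however, they nearly touched, at untreated replicate 3, the array set apart. The ARR22-ox means of this per-array difference were -1.13 ± 0.20 untreated and -1.46 ± 0.10 with t-zeatin (SD, n = 3). Between genotypes the same difference, ARR22-ox minus Col-0, was 0.33 without hormone and -0.52 with it, the latter added after the data were seen. Each exact two-sided permutation test gave p = 0.1, the smallest that 3 against 3 arrays allow, and p = 0.1 after adjustment over the 4 comparisons made, so none can pass 0.05. The reversal between genotypes was not tested. In Col-0 the value depends on the dim untreated signal of NRPA1 and was 0.20 with an offset of 16 added before log2.

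Other subunits of the nuclear RNA polymerases rose with NRPA1 and NRPA2 in Col-0, by smaller amounts. Of 33 such genes on the list 11 were tested, and 9 of them rose, none fell, and their median log2 change was 0.85, where 23.7% of all tested probe sets were called higher and 21.1% lower. The 3 tested accessory subunits of polymerase I had the largest changes of these 11: AT3G25940, a homologue of the subunit that proofreads the nascent transcript in yeast, rose by 1.51, AT3G13940, related to the yeast A49 subunit, by 1.45, and AT1G75670, related to the yeast A43 stalk subunit, by 1.27.

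Subunits used by other polymerases spread more widely. NRPB7, a stalk subunit of polymerase II, rose by 1.22 and NRPB12, shared by all nuclear polymerases, by 1.17. NRPC2, the second-largest subunit of polymerase III and so the counterpart of NRPA2, rose by 0.85 (36.6 ± 1.45 to 66 ± 6.21; SD, n = 3). The shared subunits NRPB6A and NRPB6B rose by 0.72 and 0.53, and AT1G06790, a polymerase III stalk subunit, by 0.63. The call of AT1G06790 was lost without any 1 of 5 Col-0 arrays (adjusted p from 0.0572 to 0.114), that is all but Col-0 untreated replicate 1. Without the array set apart, an ARR22-ox array, it held at 0.63 (adjusted p = 0.00601, limma). NRPB9B, of polymerase II, and NRPE7, of polymerase V, were not called, at 0.14 and 0.09. The counterparts of NRPA1 in the other polymerases could not be compared in the fit, since NRPC1 was the only one with a one-gene probe set and lay below the filter, with signals from 12.5 to 23.9.

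In ARR22-ox, 2 of the other 11 subunits rose after t-zeatin, AT1G75670 by 0.39 (adjusted p = 0.0157) and AT3G13940 by 0.36 (adjusted p = 0.0333), and 2 fell. These counts are near the shares of all tested probe sets, of which 25.2% were called higher and 25.1% lower. The median change of the 11 was -0.11, and the changes of NRPA1 and NRPA2 were 0.90 and 1.23. NRPE7 fell by 0.85 (adjusted p = 0.00249) and NRPB6A by 0.42 (adjusted p = 0.0204), all by limma. Leaving out single arrays left 0 to 2 rises. The rise of AT1G75670 was lost without the first treated array of ARR22-ox (adjusted p = 0.0617). That of AT3G13940 was lost without the first or the second untreated array, or the first or the third treated one (adjusted p = 0.0639 to 0.113), and under both other scalings. The fall of NRPB6A was lost without the second or the third treated array (adjusted p = 0.0541 to 0.0714), and it was -0.23 without the array set apart. For the difference of responses, 10 of 11 were lower in ARR22-ox and none higher (median -0.94), beside 24.5% lower and 21.1% higher over all tested probe sets. The exception was NRPB9B at -0.35 (adjusted p = 0.0629). Whether NRPA1 and NRPA2 differ from these subunits as a group was not tested.

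Without hormone, ARR22-ox exceeded Col-0 in 7 of the 11 other subunits and fell below it in none, with a median of 0.49, beside 24.5% higher and 24.0% lower over all tested probe sets. NRPA1 and NRPA2 were at 0.22 and -0.12, neither called. Without the array set apart 8 of the 11 were higher, with a median of 0.38, and NRPA1 was also called, at 0.39. Calls were also more common over all tested probe sets in that setting. There 4252 of 13648 were higher and 4140 lower, against 3342 and 3280 with all arrays. The largest difference among the 11 with all arrays was that of NRPB7, at 137 ± 7.18 against 59.8 ± 5.23 (SD, n = 3; log2 difference 1.20, adjusted p = 2.11e-06, limma). After t-zeatin 7 of 11 were lower in ARR22-ox and none higher (median -0.53), where 28.0% of all tested probe sets were lower and 23.1% higher. NRPB7 had 120 ± 11 in ARR22-ox t-zeatin, not called as different from the 139 ± 12.7 of Col-0 t-zeatin.

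The only tested factor that brings polymerase I to its promoter was AT2G34750, a homologue of the yeast initiation factor RRN3, and 3 other listed factors had no tested one-gene probe set. It rose in Col-0 from 283 ± 9.83 to 528 ± 19 (SD, n = 3; log2 change 0.90, adjusted p = 0.00308, limma). In ARR22-ox it was 257 ± 109 untreated and 275 ± 21.4 with t-zeatin (0.17, not called). That untreated mean rests on 1 array, the one set apart. Without it the change was 0.50 and called (adjusted p = 1.16e-05). The untreated genotype difference moved from -0.22 (not called) to -0.54 (adjusted p = 4.27e-06). The difference of responses was -0.72 and not called (adjusted p = 0.0544, limma), and without that array -0.40 and called (adjusted p = 0.00154). After t-zeatin AT2G34750 was lower in ARR22-ox than in Col-0, with a log2 difference of -0.94 (adjusted p = 0.00181, limma).

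Nucleolar factors that process ribosomal RNA rose in Col-0. Of 36 listed genes 9 were tested, and all 9 were called higher, with a median log2 change of 1.32, beside 23.7% of all tested probe sets. AT1G52930 and AT3G15460, related to the yeast large-subunit assembly factor Brx1, rose by 1.89 and 1.48. AT3G05060, a homologue of the snoRNP core protein NOP58, rose by 1.86, and AT2G40360, a homologue of the assembly factor BOP1, by 1.56. The call of DIM1A, an rRNA dimethylase, at 0.81 was lost when any 1 of the 6 Col-0 arrays was left out (adjusted p from 0.0593 to 0.103). Without the array set apart the call held, at 0.81 (adjusted p = 0.00015, limma). All groups share 1 spread in the fit. The SD of log2 DIM1A signal was 0.14 and 0.109 in untreated and treated Col-0 and 0.724 in untreated ARR22-ox.

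In ARR22-ox 3 of the 9 nucleolar factors were called higher after t-zeatin and none lower, with a median of 0.16. This is near the 25.2% of all tested probe sets called higher there. AT2G40360 changed by 0.31, and the other calls were AT5G15550 at 0.34 and AT2G40430 at 0.37. None of these calls held in every setting. That of AT2G40360 was lost without the first treated ARR22-ox array (adjusted p = 0.0562), that of AT5G15550 without any of 7 arrays (adjusted p up to 0.147) and that of AT2G40430 without any treated ARR22-ox array or the array set apart (adjusted p = 0.0515 to 0.0848). Equal array medians removed the calls of AT5G15550 and AT2G40430 (adjusted p = 0.0872 and 0.0951), and quantile normalization that of AT5G15550. Without the array set apart the list had 2 rises and 2 falls and a median of 0.07. In that setting 4148 of 13648 tested probe sets were called higher and 4187 lower, against 3443 and 3420 with all arrays. AT1G52930 measured 165 ± 17.4 and 184 ± 6.93 in ARR22-ox, not called, against 107 ± 9.33 and 395 ± 4.08 in Col-0 (SD, n = 3). The difference of responses was called lower in 8 of 9 (median -1.25), beside 24.5% of all tested probe sets. The untreated level enters this difference, and 6 of the 9 were already higher in untreated ARR22-ox than in untreated Col-0 (median 0.58, beside 24.5% of all tested probe sets).

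**Figure D3:**
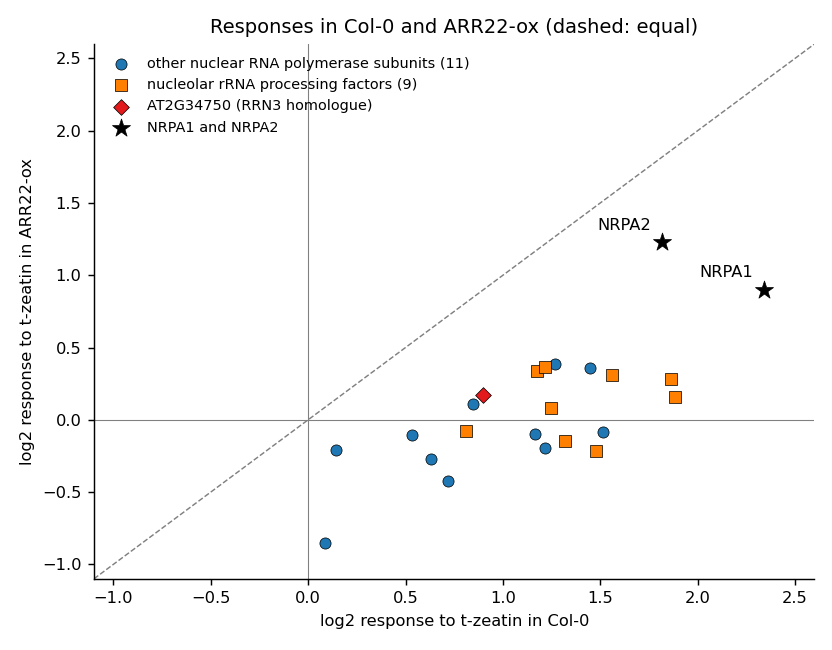
Log2 response to t-zeatin in Col-0 (horizontal) against ARR22-ox (vertical) for NRPA1 and NRPA2, 11 other nuclear RNA polymerase subunits, 9 nucleolar factors and the RRN3 homologue. NRPA1 and NRPA2 lie at 0.90 and 1.23 on the vertical axis, where no other plotted gene exceeds 0.39, and every point lies below the dashed line of equal response.

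The type-A response regulators, whose genes cytokinin is known to induce quickly, gave 1 tested gene of 10. RR16 went from 27.1 ± 3.74 to 244 ± 17.1 in Col-0 and from 17.7 ± 6.27 to 8.55 ± 1.42 in ARR22-ox (SD, n = 3). Both ARR22-ox means lie below the lowest kept mean of 24.3, so nothing is read from their difference. The marker of dividing cells with a tested probe set, AUR1, an Aurora kinase of mitosis, moved the other way from NRPA1 and NRPA2: it fell by 0.61 in Col-0 and by 0.50 in ARR22-ox (adjusted p = 0.000373 and 0.00148, limma). Of the root markers EXPA7 fell in Col-0 by 0.71 and PYK10 in ARR22-ox by 0.27, a call that quantile normalization removed. The root markers also differed between the genotypes: PYK10 was lower in ARR22-ox by a log2 difference of -0.35 without hormone and -0.57 after t-zeatin (adjusted p = 0.000856 and 1.45e-05, limma), and EXPA7 was higher after t-zeatin by 0.76 (adjusted p = 0.00562). The part of these markers in the results was not tested.

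The genes most like NRPA1 and NRPA2 across the 12 arrays were found by the root mean square difference of log2 signals, each centred on its own mean, among 7297 other tested one-gene probe sets. This is a description with no test, and it says nothing of shared function. The 5 nearest to NRPA1 were AT3G06530 (0.15), AT2G34357 (0.19), GSTU26 (0.20), a glutathione transferase gene, AT3G09440 (0.23), a cytosolic Hsc70 chaperone gene, and AT1G06720 (0.24), against a median of 0.99 over all. The signals of AT3G06530 were 29.7 ± 4.45 and 128 ± 13.5 in Col-0 and 33.3 ± 8.7 and 55 ± 2.35 in ARR22-ox (SD, n = 3).

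The 5 nearest to NRPA2 were AT4G38710 (0.15), AT3G15010 (0.15), an RNA-binding protein gene, AT1G18850 (0.21), NIH (0.23), a nuclear DEIH-box helicase gene, and AT4G20980 (0.23), a translation initiation factor 3 subunit gene, against a median of 0.86. These genes rose in ARR22-ox, from 0.70 for NIH to 1.44 for AT3G15010. Those nearest to NRPA1 rose there too, from 0.56 for GSTU26 to 0.76 for AT3G06530. Both lists were chosen for likeness on these same arrays, so such rises follow from the choice. The lists of 5 share no gene. NRPA2 was number 9 among the neighbours of NRPA1 and NRPA1 number 12 among those of NRPA2, at a distance of 0.26 (0.255). Each thus had several other genes closer to it than its partner subunit.

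**Figure D4:**
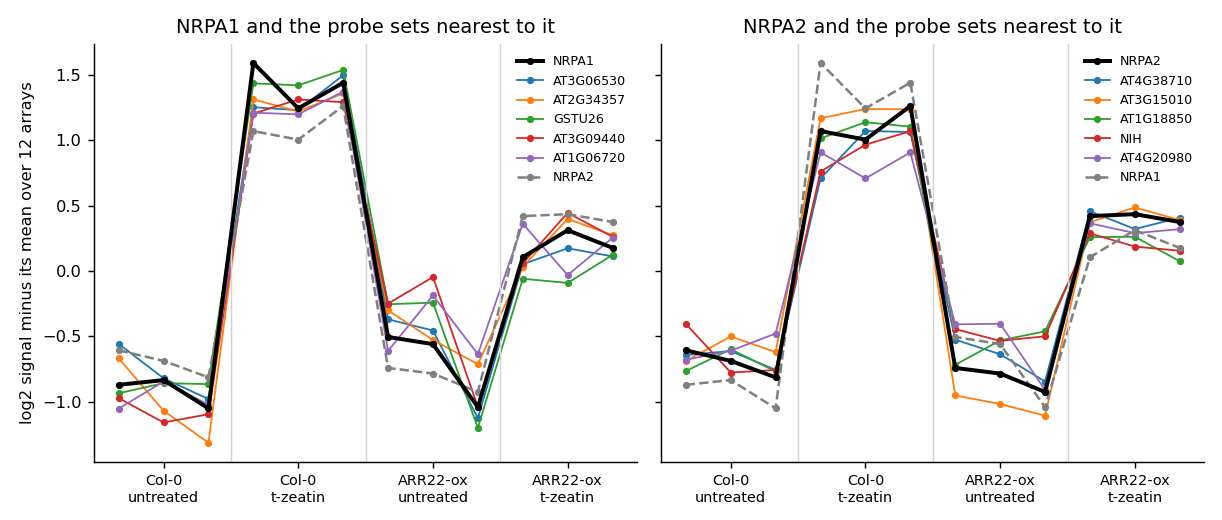
Log2 signal on each of the 12 arrays, centred on the mean over arrays, for NRPA1 (left) and NRPA2 (right) in black, the 5 nearest probe sets in colour and the partner subunit dashed. Lines only join the arrays of 1 probe set. In the left panel the curves bunch at the Col-0 t-zeatin arrays, and the dashed partner sits lower there. At the ARR22-ox t-zeatin arrays the dashed partner sits higher than the other curves, except AT3G09440 on replicate 2 (0.444 against 0.434).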

How the data were processed

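Per probe set, the deposited tables give intensity on a linear scale. The submitters' processing notes name MAS5, without a version. The authors had scaled each array: the mean after trimming 2% from each end was 100 on all 12 arrays, and no 2 arrays were identical. Of 22810 probe sets 64 were controls, 13513 were paired with 1 gene, 503 with several and 8730 with none, and 13436 of the one-gene probe sets were found in the RefSeq gene table (assembly TAIR10.1). Probe positions were not mapped, so no coordinates are given.

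Signals were converted to log2. Filtering at the 40th percentile of the mean left 13648 probe sets. limma 3.58.1 (R 4.3.3) fitted 4 group means to 12 arrays with a variance trend, two-sided tests and Benjamini-Hochberg adjustment over all 13648, called under 0.05. The 5 comparisons are the t-zeatin responses of both genotypes, their difference, and the genotypes without and with t-zeatin. The code of the fit was run on simulated arrays with planted changes, as a check of the code only. Far fewer probe sets changed there than here, and the noise was alike on every array. It therefore does not show how the fit behaves on these data. Replicate numbers follow accession order and pair nothing, and no batch is labelled. The number of arrays limits the precision.

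The genes named are NRPA1 and NRPA2, all tested polymerase subunits and polymerase I initiation factors, the 4 nucleolar factors with the largest called Col-0 change, and the 5 nearest probe sets to each member. AT5G15550, AT2G40430 and DIM1A were added after their values were seen. Members and lists were chosen with earlier results of these data known. Detection calls were not used here.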

Additional observations from a re-analysis of the deposited data

Results flagged for a closer look

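The response to t-zeatin differed between the genotypes for both genes, as tested by the difference of responses in the limma fit. For NRPA1 it was lower in ARR22-ox by a log2 difference of -1.44 (adjusted p = 0.000173), with rises of 2.34 in Col-0 and 0.90 in ARR22-ox. For NRPA2 the difference was -0.59 (adjusted p = 0.00393), with rises of 1.81 and 1.23. All 3 t-zeatin arrays lay above all 3 untreated arrays of their genotype in each of these 4 cases.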

How the results depend on the processing

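Each comparison of NRPA1 and NRPA2 was recomputed with each of 12 arrays left out and under up to 9 other settings: an offset of 16, quantile normalization, equal medians, no filter or a stricter one (60th percentile), only the arrays compared, no variance trend, robust moderation and array weights. All 203 recomputed values kept their direction, and 201 their side of the threshold. The exceptions were the untreated genotype difference of NRPA1, called with array weights (0.355, adjusted p = 0.0254) and without ARR22-ox untreated replicate 3. With single arrays left out this difference ranged from 0.118 to 0.387. The NRPA1 rise in Col-0 was 1.81 with the offset and otherwise at least 2.26, and its rise in ARR22-ox was 0.64 with the offset. NRPA1 lay below the stricter filter, so that setting gave no value for it. The change of NRPA1 minus that of NRPA2 in Col-0 moved from 0.528 to 0.202 with the offset. Neither scaling moved the median of all probe sets by more than 0.064. Counts of other subunits called higher in the ARR22-ox response went from 2 to between 0 and 2, and of nucleolar factors from 3 to between 0 and 3. Of nucleolar factors called higher in untreated ARR22-ox, 6 became 3 with only the arrays compared. NRPE7, not called in Col-0 at 0.09, was -0.03 and -0.07 without the second untreated and the first treated Col-0 array. No paired analysis was possible because the labels give no replicate numbers shared between groups. The untreated signals of NRPA1 lie close to the lowest kept mean of 24.3.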

Other observations

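The arrays also carry control probe sets for ribosomal RNA, which the fit left out and which were looked at after the other results were known. The 25S rRNA, a product of RNA polymerase I, had a signal of 92.9 ± 4.66 in untreated and 63.5 ± 14.6 in treated Col-0 plants, and of 65.7 ± 18.4 in untreated and 68.4 ± 8.28 in treated ARR22-ox plants (SD, n = 3 arrays). The Col-0 t-zeatin arrays, from 51.3 to 79.7, lay below the untreated Col-0 arrays, from 88.04 to 97.3, while NRPA1 and NRPA2 were higher there. The log2 difference was -0.57 with an exact two-sided permutation p = 0.1, the smallest possible for 3 against 3, and an adjusted p = 0.2 over 4 comparisons. Untreated ARR22-ox arrays, from 49.1 to 85.4, also lay below untreated Col-0, by -0.54 (exact permutation p = 0.1, adjusted p = 0.2). Neither gene was called in that comparison with all 12 arrays. After t-zeatin the genotypes differed by 0.125 (exact permutation p = 0.7). In ARR22-ox the t-zeatin difference was 0.09 (exact permutation p = 0.9). Without ARR22-ox untreated replicate 3, a setting added after the data were seen, it turned to -0.10, and the untreated genotype difference was -0.34. These arrays measure labelled RNA as a share of the array's signal, the priming method is not given in the sources used here, and the value is no measure of rRNA synthesis. The 5S rRNA control, a product of RNA polymerase III, had group means between 2.03 and 3.21, far below the lowest kept mean of 24.3.

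ARR15, a type-A response regulator below the filter, went from 12.1 ± 0.426 to 147 ± 10.8 in Col-0 and from 10.1 ± 2.29 to 6.18 ± 3.74 in ARR22-ox (SD, n = 3). NRPC1, the polymerase III counterpart of NRPA1 and also below the filter, went from 14.8 ± 2.01 to 22.5 ± 1.51 in Col-0, with no overlap between arrays, and stood at 17 ± 0.844 and 17 ± 1.15 in ARR22-ox.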
